A study of Bos taurus with 40 samples.

Results

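The genes described here encode the subunits of the 5 complexes of oxidative phosphorylation in cattle. They were chosen by symbol: every gene whose symbol begins with NDUFA, NDUFB, NDUFC, NDUFS, NDUFV, UQCR, ATP5 or COX4 to COX8, with SDHA, SDHB, SDHC, SDHD and CYC1, and without the NDUFAF assembly factors. This gave 84 of the 13570 genes listed, and all 84 were among the 13148 genes with at least 1 read. By their known roles, 37 belonged to complex I, 4 to complex II, 9 to complex III, 16 to complex IV and 15 to complex V. The remaining 3, NDUFA4L2, COX7A2L and ATP5S, carry subunit-like names without being regular subunits. COX6C was not among the genes listed, and the subunits encoded by the mitochondrial genome were not analysed here.

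Oxidative phosphorylation takes place in the inner mitochondrial membrane. Complexes I and II pass electrons from NADH and succinate to ubiquinone, complex III hands them to cytochrome c, and complex IV, cytochrome c oxidase, reduces oxygen. Complexes I, III and IV pump protons, and complex V, the ATP synthase, uses the proton gradient to make ATP. Several small subunits of complex IV come in alternative forms encoded by separate genes, of which some are known as heart and skeletal muscle forms and others as liver or ubiquitous forms. Skeletal muscle is rich in mitochondria, and more so in slow oxidative than in fast glycolytic fibres.

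The samples came from 10 untreated Korean cattle slaughtered at over 22 months of age, 5 cows and 5 bulls. Liver, abdominal fat, intact longissimus dorsi muscle (the long muscle of the back) and pituitary gland were taken from each animal, and 1 poly-A selected RNA-seq library was made per animal and tissue, which gave 40 libraries and 5 animals per sex in every tissue. The study asked which genes differ between the sexes, and the same libraries allow the tissues to be compared. Each library was made from whole tissue, so that more cells of a type and more RNA per cell cannot be told apart. Levels are given as CPM, the reads of a gene in proportion to the reads of its library, scaled between libraries by the trimmed mean of M-values (TMM), a scaling that aligns the bulk of genes.

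Between 5173092 and 19165864 reads per library fell on genes, with a median of 10005607. Before the TMM scaling, 3 reads corresponded to 0.157 to 0.580 CPM. The 10 most abundant genes took 21.2 to 34.6% of the reads in liver and 9.38 to 13.0% in fat. Markers of the labelled tissue were present in all 40 libraries: the summed level of 7 hepatocyte genes was at least 139349 CPM in liver and at most 1906 CPM elsewhere, and that of 6 adipocyte genes was at least 7876 CPM in fat and at most 1350 CPM elsewhere. The liver of bull 3 went against its label. XIST, the RNA of the inactive X chromosome, stood at 1401 CPM there, at 681 to 2179 CPM in the cow livers and at 0.283 to 0.936 CPM in the other bull livers, and DDX3Y, USP9Y and ZFY had no read in the liver labelled bull 3. The most alike pair of all libraries was this one and the liver of cow 4, with a chi-square of 15.0 per gene, where the next pair had 23.2. Values without it are given beside the main counts that involve liver. Counts of animals and share tests that pair liver with another tissue hold it under its label, so that this pair is in doubt.

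The fat of bull 5 stood apart in the genes described here. The summed level of the 84 genes was 21954 CPM in that library and 4724 to 11486 CPM in the other 9 fat libraries, and 67 of the 84 genes had their highest fat value there, as did 19.2% of all genes. The 81 ribosomal protein genes, which encode the proteins of the cytosolic ribosome, summed to 86025 CPM there and to 8023 to 33862 CPM in the other fat libraries. The adipocyte genes summed to 26899 CPM there, against 7876 to 14726 CPM, and 8 leukocyte genes to 3388 CPM, against 1314 to 2332 CPM. The part of these in the results for fat was not tested. For counts and medians that it moves, values without this library, a choice made after the data were seen, are given beside those with it.

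The summed level of the 84 genes differed between the tissues. It was 9615 to 24658 CPM in muscle with a median of 13793, 4724 to 21954 CPM in fat with a median of 8962, 4682 to 8553 CPM in liver with a median of 5424, and 2743 to 5602 CPM in the pituitary gland with a median of 4304. Every muscle library was above every liver and pituitary library, and apart from the fat of bull 5 the fat libraries lay between 4724 and 11486 CPM, overlapping with both liver and muscle. As a share of all reads on genes, without the TMM scaling, these genes took 1.10% ± 0.303 in muscle, 1.17% ± 0.415 in fat, 0.565% ± 0.0798 in the pituitary gland and 0.459% ± 0.0571 in liver (SD, n = 10 each). Without the fat of bull 5 the share in fat was 1.06% ± 0.262 (SD, n = 9), so that the mean of fat was above that of muscle only with this library. The order of liver and the pituitary gland turned with the scaling.

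**Figure D1:**
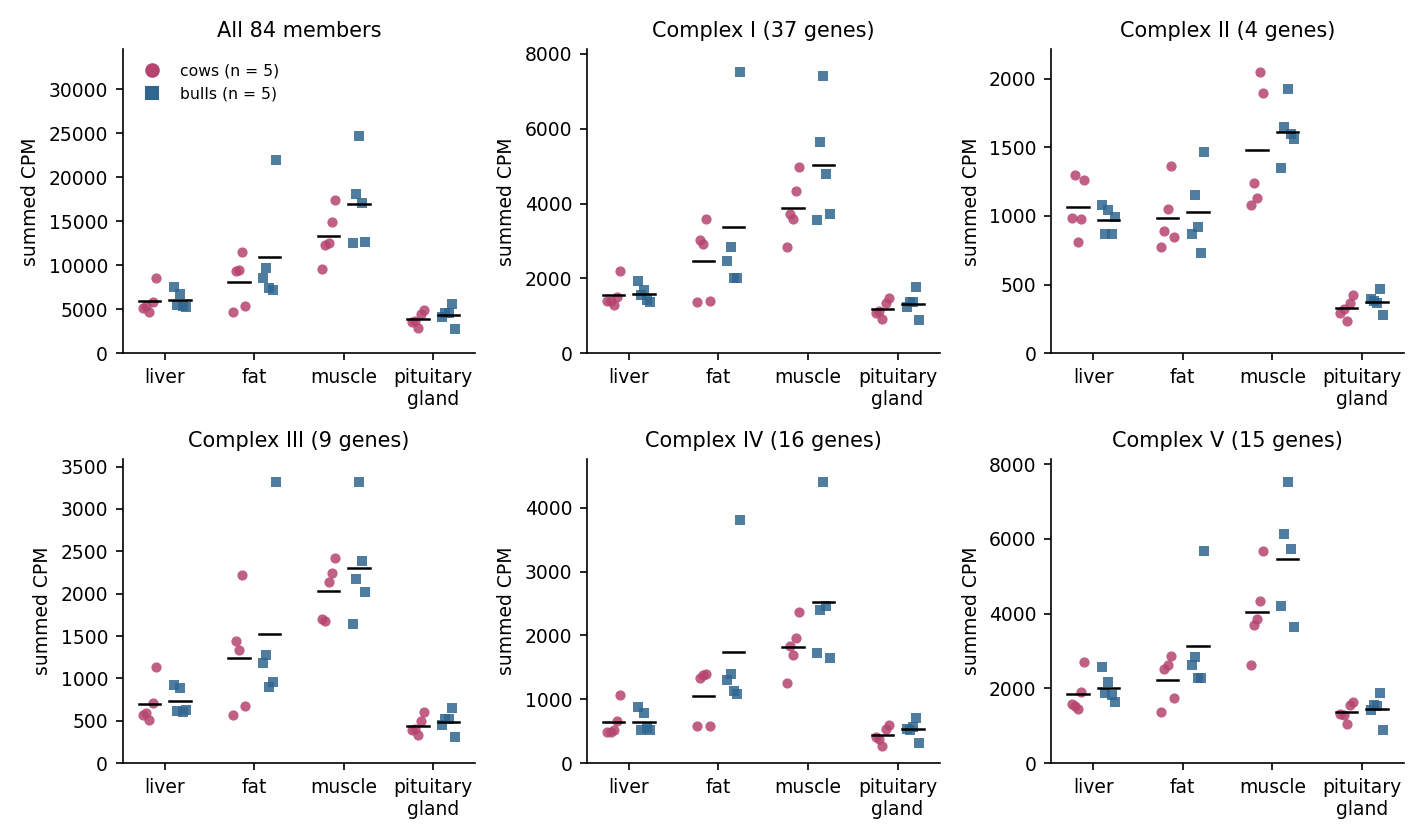
Summed level of the 84 oxidative phosphorylation genes and of the members of each complex (CPM) in liver, fat, muscle and pituitary gland, with cows as circles, bulls as squares and a line at the mean of each 5 samples. The muscle samples reach 24658 CPM, and the fat of bull 5 stands at 21954 CPM above the other 9 fat samples.

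With TMM scaling, nearly all of these genes were higher in muscle than in the average of the other tissues. In edgeR's quasi-likelihood test, with p-values adjusted over all 13148 genes (Benjamini-Hochberg) and a threshold of 0.05, 79 of the 84 differed, 74 higher and 5 lower in muscle. The count was 79 without the liver of bull 3 and 81 without the fat of bull 5. Of all genes tested, 61.1% differed, 30.5% higher and 30.6% lower. The median log2 fold change was 1.24 over the 84 genes and -0.14 over all genes. The 5 lower genes were COX6A1, COX7A2, COX8A, COX6B2 and COX7A2L, of which 4 encode forms of complex IV subunits and COX7A2L a factor for supercomplexes of the chain. NDUFS5, UQCRH, ATP5E, ATP5L and COX7B2 did not pass the threshold. With library sizes alone in place of TMM, 62 of the 84 passed, 57 higher and 5 lower in muscle. The median was then 0.68 over the 84 genes and -0.66 over all genes.

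Against the single tissues, the median difference was largest for the pituitary gland and smallest for fat, while with library sizes alone it was larger for liver (1.37) than for the pituitary gland (0.82). Of the 84 genes, 77 differed between muscle and pituitary gland (72 higher in muscle, 5 lower, median log2 fold change 1.74) with 63.7% of all genes differing and a median of -0.02. Between muscle and liver 74 differed (70 higher, 4 lower, median 1.48) against 61.6% of all genes and a median of 0.10, and without the liver of bull 3 the count was 73. Between muscle and fat 43 differed (35 higher, 8 lower, median 0.54), which is a smaller share than the 59.3% of all genes that differed. In direction, 26.7% of all genes were higher in muscle than in fat and 32.6% were lower. Without the fat of bull 5 the muscle and fat comparison gave 55 genes, 49 higher and 6 lower, with a median of 0.84. With library sizes alone in place of TMM, it gave 16 higher and 24 lower, while the median over all genes moved from -0.14 to -0.86. Relative to that median, the median of the 84 genes was 0.68 with TMM and 0.64 with library sizes alone.

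By the order of the 4 tissue means, 65 of the 84 genes were highest in muscle, 16 in fat, 2 in the pituitary gland and 1 in liver. These were 72 in muscle and 9 in fat without the fat of bull 5, and 66 in muscle and 0 in liver without the liver of bull 3. The pituitary gland had the lowest mean for 51 genes, liver for 22, muscle for 6 and fat for 5. The most frequent order was muscle, fat, liver, pituitary gland, found for 38 genes. For 4 genes, ATP5A1, COX6A2, COX8B and NDUFS1, each of the 10 muscle samples lay above each of the 30 others, as it did for 4.65% of all genes. This held for 13 of the 84 genes and 4.86% of all genes without the fat of bull 5.

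**Figure D2:**
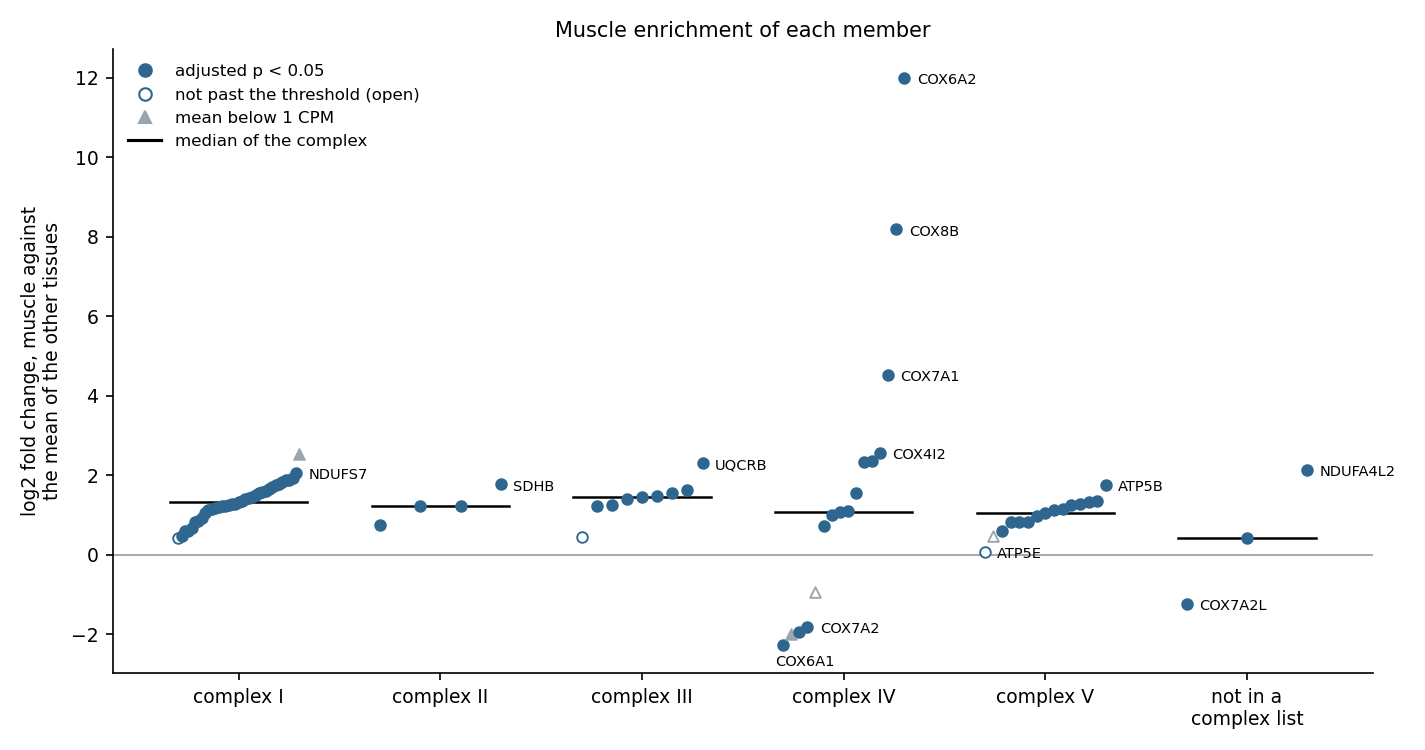
Log2 fold change of each of the 84 genes in muscle against the mean of liver, fat and pituitary gland, by complex (filled, past the threshold of 0.05; open, not past it; grey triangles, mean below 1 CPM; black lines, median of the complex). COX6A2, whose value rests on few reads outside muscle, and COX8B at 8.18 lie far above the rest, and the genes below 0 are alternative forms in complex IV and COX7A2L.

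Complex I, which oxidises NADH, was higher in muscle in 36 of its 37 members, with a median log2 fold change of 1.33. NDUFS7 and NDUFS1, core subunits that carry iron-sulfur clusters, showed the largest differences among members with a mean of at least 1 CPM. NDUFS1 stood at 315 to 793 CPM in muscle (median 444), 124 to 269 in liver (175), 62.8 to 163 in fat (96.6) and 76.5 to 130 in the pituitary gland (99.0). Its muscle values did not overlap with those of any other tissue, and its log2 fold change was 1.93 ± 0.14 (SE, adjusted p = 7.4e-17). NDUFS7 stood at 70.3 to 413 CPM in muscle (median 136), 38.7 to 469 in fat (73.0), 17.0 to 38.3 in liver (28.7) and 8.91 to 39.3 in the pituitary gland (21.9). Muscle was above liver and pituitary gland without overlap but overlapped with fat, whose highest value was above all muscle values. Its log2 fold change against the average of the others was 2.06 ± 0.28 (adjusted p = 6.9e-09), and against fat alone it was 0.46 and did not pass the threshold.

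At the other end of complex I were NDUFS5 and NDUFB2, both small accessory subunits. NDUFS5 had a log2 fold change of 0.42 ± 0.21 (adjusted p = 0.075), with 77.4 to 183 CPM in muscle (median 108) and 30.3 to 395 CPM in fat (median 117), so that the fat values enclosed those of muscle. NDUFB2 was only slightly higher in muscle (0.47 ± 0.15, adjusted p = 0.0061), at 45.9 to 122 CPM in muscle (median 59.8) and 42.5 to 70.4 CPM in the pituitary gland (median 57.0). With library sizes alone NDUFB2 turned to -0.12. Against fat, 17 members of complex I were higher in muscle and 1 was lower, NDUFA10, an accessory subunit with 257 ± 124 CPM in fat and 161 ± 55.0 CPM in muscle (SD, n = 10). NDUFA10 was named after its values were seen.

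Complex II is succinate dehydrogenase, shared between the respiratory chain and the tricarboxylic acid cycle. All 4 subunits passed the threshold as higher in muscle than in the average of the other tissues, but against liver only SDHB and SDHD did. With library sizes alone SDHA did not pass against the average (0.097, adjusted p = 0.61). SDHB, the iron-sulfur subunit, stood at 411 to 713 CPM in muscle (median 563), 150 to 257 in liver (197), 103 to 463 in fat (202) and 73.1 to 143 in the pituitary gland (105). Its muscle values overlapped with those of fat and of no other tissue, and the log2 fold change was 1.77 ± 0.15 (adjusted p = 3.3e-14). SDHD, a membrane anchor, stood at 96.2 to 243 CPM in muscle (median 164), 70.5 to 157 in liver (105), 56.7 to 142 in fat (92.2) and 22.0 to 44.0 in the pituitary gland (36.1). Only the pituitary gland was separated from muscle, and the log2 fold change was 1.23 ± 0.13 (adjusted p = 4.7e-11).

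SDHC and SDHA followed another pattern, in which liver was close to muscle. SDHC, the other membrane anchor, was at 52.3 to 122 CPM in liver (median 99.7), 40.3 to 150 in muscle (85.7), 12.7 to 99.1 in fat (52.8) and 5.22 to 16.1 in the pituitary gland (10.4). The pituitary gland lay below both liver and muscle without overlap. SDHC differed by -0.07 ± 0.24 on the log2 scale between muscle and liver (adjusted p = 0.86) and was higher in liver than in fat by 0.81 ± 0.24 (adjusted p = 0.0038, higher in 9 of 10 animals). SDHA, the catalytic flavoprotein, had 724 ± 284 CPM in muscle, 624 ± 149 in liver, 633 ± 178 in fat and 203 ± 46.9 in the pituitary gland (SD, n = 10). Muscle did not pass the threshold against liver (0.22 ± 0.20) or fat (0.20 ± 0.20) and did against the pituitary gland (1.84 ± 0.20, adjusted p = 4.1e-10).

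In complex III, 8 of 9 members were higher in muscle than in the average of the others, with a median of 1.46. UQCRB, a ubiquinone-binding accessory subunit, stood at 237 to 992 CPM in muscle (median 432), 45.4 to 274 in liver (126), 66.3 to 291 in fat (99.5) and 42.5 to 114 in the pituitary gland (62.6). The lowest muscle values overlapped with the highest of liver and fat, and the log2 fold change was 2.31 ± 0.24 (adjusted p = 4.7e-12). UQCRFS1, the Rieske iron-sulfur protein, was higher by 1.63 ± 0.18 (adjusted p = 4.8e-11), at 341 ± 74.7 CPM in muscle and 50.8 ± 10.5 CPM in the pituitary gland. UQCRC2, a core subunit, was higher by 1.24 ± 0.16 (adjusted p = 2.4e-09). UQCRH, the hinge protein that docks cytochrome c, did not pass the threshold (0.45 ± 0.22, adjusted p = 0.075), with 57.0 to 223 CPM in muscle (median 123), 47.3 to 402 in fat (142), 47.9 to 179 in the pituitary gland (115) and 34.2 to 81.3 in liver (43.2). Its low tissue was liver, with a log2 fold change of 1.45 ± 0.27 in muscle against liver and of -1.82 ± 0.27 in liver against fat (adjusted p = 2.0e-05 and 5.3e-07).

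In complex IV, 11 of 16 members were higher in muscle and 4 were lower. Among members without a muscle form, COX5A was higher by 2.32 ± 0.19 and COX5B by 1.56 ± 0.22 (adjusted p = 9.8e-15 and 1.4e-08), both nuclear-encoded subunits near the catalytic core. NDUFA4, first assigned to complex I and now counted with complex IV, stood at 288 to 779 CPM in muscle (median 436) and 21.1 to 48.1 CPM in the pituitary gland (median 32.1) without overlap, and was higher in muscle than in the average of the others by 2.35 ± 0.24 (adjusted p = 3.4e-12). COX4I1, COX6B1 and COX7C were higher by 1.07 ± 0.21, 1.0 ± 0.25 and 0.71 ± 0.30 (adjusted p = 1.5e-05, 0.00044 and 0.030). With library sizes alone COX6B1 did not pass the threshold (0.43, adjusted p = 0.083). COX5A, COX5B and COX7C were named after their values were seen.

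The forms of 3 complex IV subunits changed places between muscle and the other tissues. COX6A2, the muscle form of subunit VIa, stood at 95.6 to 598 CPM in muscle (median 150), at 0 to 0.162 in liver, at 0 to 0.664 in fat and at 0 to 0.0684 in the pituitary gland. Muscle was far above every other sample, with 12465 reads in the 10 muscle libraries against 24 in fat, 5 in liver and 1 in the pituitary gland. Relative to library sizes scaled by TMM, this was 1003 times the fat level (95% interval 674 to 1567). It was 1751 times without the fat of bull 2, which held 12 of the 24 reads. The ratios were 2942 to the liver level (1260 to 9062) and 26727 to the pituitary level (4796 to 1055748). Their size depends on this scaling, and the exact intervals cover counting error only. COX6A1, the form found in other tissues, went the other way, with 9.53 to 33.1 CPM in muscle (median 17.0), 35.1 to 167 in liver (67.6), 85.0 to 440 in fat (186) and 13.5 to 49.4 in the pituitary gland (37.8). Every muscle value lay below every liver and fat value, and COX6A1 was lower in muscle than in the average of the others by a log2 fold change of -2.27 ± 0.23 (adjusted p = 1.3e-09).

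COX7A1 and COX7A2 are the muscle and ubiquitous forms of subunit VIIa. COX7A1 stood at 23.6 to 419 CPM in muscle (median 73.8), 2.05 to 36.9 in fat (6.79), 2.39 to 10.6 in the pituitary gland (6.34) and 0.128 to 2.87 in liver (0.999). Only fat overlapped with muscle, and the log2 fold change was 4.52 ± 0.32 (adjusted p = 6.3e-17). COX7A2 was at 3.03 to 16.2 CPM in muscle (median 8.17), 10.4 to 31.7 in liver (18.3), 12.3 to 114 in fat (36.1) and 14.0 to 69.0 in the pituitary gland (27.0), which gave a log2 fold change of -1.82 ± 0.28 (adjusted p = 2.1e-06). The lowest values of each other tissue overlapped with the highest of muscle.

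COX8B and COX8A encode the corresponding forms of subunit VIII. COX8B stood at 68.3 to 434 CPM in muscle (median 137), 0.0787 to 10.1 in fat (4.95), 0 to 0.283 in liver and 0 to 0.457 in the pituitary gland, and its log2 fold change was 8.18 ± 0.39 (adjusted p = 6.1e-24). Muscle was separated from the rest, and fat was next. Fat was above the pituitary gland by 4.60 ± 0.53 on the log2 scale (adjusted p = 1.3e-10). It was higher in fat in 9 of 10 animals, and cow 5 had 1 read in each of the 2 tissues. COX8A had 9.13 to 42.3 CPM in muscle (median 26.3), 33.5 to 99.5 in liver (69.5), 34.5 to 435 in fat (171) and 44.0 to 131 in the pituitary gland (81.7), and was lower in muscle (-1.95 ± 0.22, adjusted p = 1.0e-08). Its muscle values overlapped with the lowest of liver and fat and not with those of the pituitary gland.

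The share of reads within each pair of forms does not depend on scaling between libraries. COX6A2 took 90.5% ± 3.84 of the COX6A1 and COX6A2 reads in muscle (SD, range 83.1 to 96.4%) and at most 0.363% in any sample of another tissue. COX7A1 took 90.3% ± 4.96 of the COX7A1 and COX7A2 reads in muscle (80.8 to 96.5%), 18.4% ± 9.35 in fat, 18.2% ± 5.82 in the pituitary gland and 5.74% ± 3.40 in liver. COX8B took 84.7% ± 5.67 of the COX8A and COX8B reads in muscle (77.3 to 94.7%), 3.28% ± 2.72 in fat, 0.271% ± 0.214 in the pituitary gland and 0.213% ± 0.210 in liver. In all 3 pairs the muscle share was higher than that of each other tissue in 10 of 10 animals, with p = 0.001953 in a 2-sided exact sign-flip permutation test over the animals, the smallest p it can give, and 0.0044 after adjustment over 27 comparisons. These are shares of reads, and they were not corrected for the lengths of the transcripts.

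**Figure D3:**
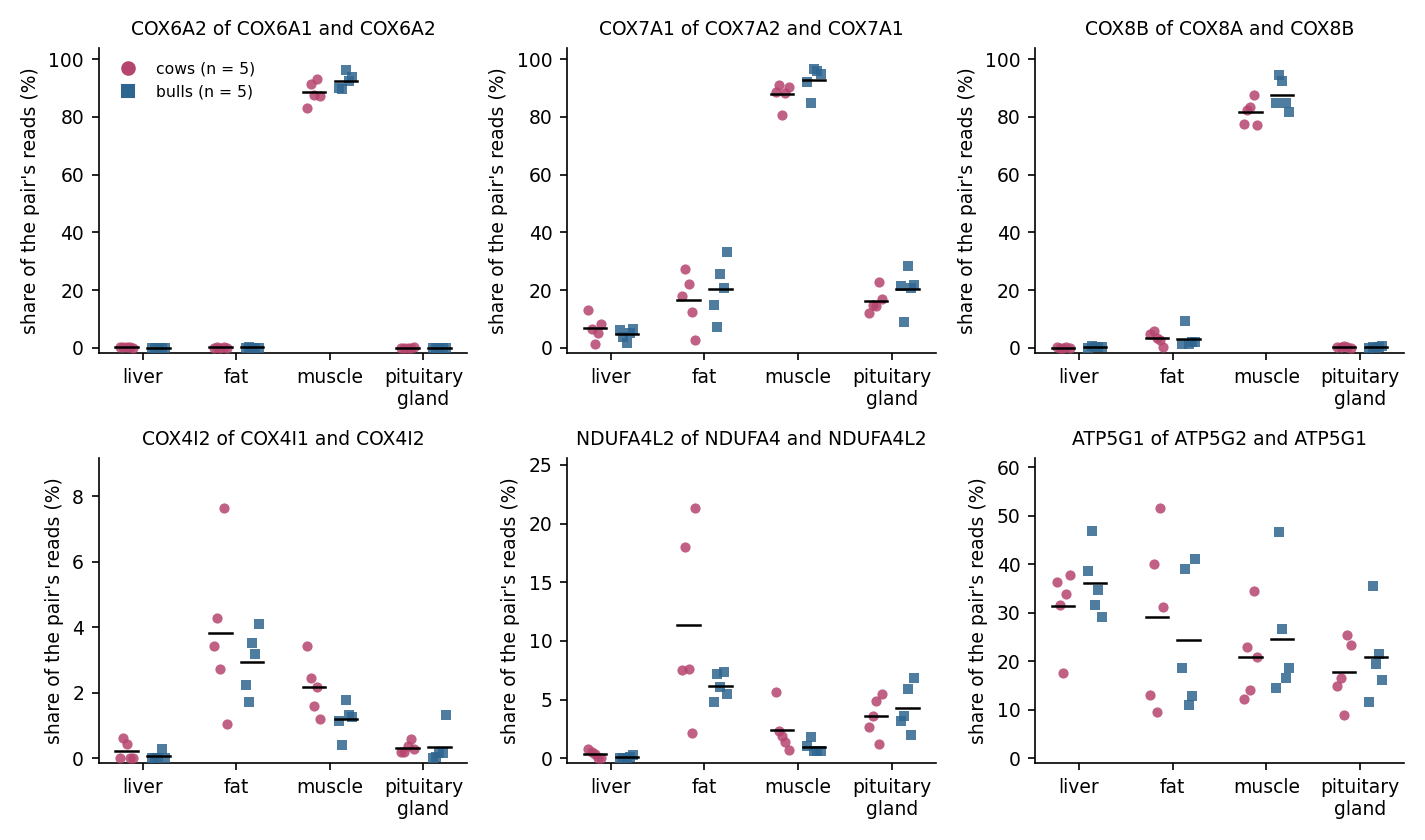
Share of the second named gene in the reads of its pair (percent) in each sample of liver, fat, muscle and pituitary gland, with cows as circles, bulls as squares and lines at the mean of each 5 samples. COX6A2, COX7A1 and COX8B take 90.5, 90.3 and 84.7% of their pairs in muscle and 18.4% or less on average elsewhere.

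The other pairs behaved differently. COX4I2, a form of subunit IV known from lung and linked to low oxygen, took 3.39% ± 1.81 of the COX4I1 and COX4I2 reads in fat, 1.68% ± 0.836 in muscle, 0.330% ± 0.387 in the pituitary gland and 0.134% ± 0.230 in liver, and the muscle share was lower than that of fat (adjusted p = 0.0099, sign-flip permutation test) and higher than those of liver and pituitary gland (0.0044 and 0.0075). NDUFA4L2, a relative of NDUFA4 that is induced by low oxygen, took 8.76% ± 6.05 of the NDUFA4 and NDUFA4L2 reads in fat and 1.67% ± 1.52 in muscle, lower in muscle in 10 of 10 animals (adjusted p = 0.0044). Its share in the pituitary gland was 3.94% ± 1.81, also above that of muscle (adjusted p = 0.040), a call that was lost in 8 of the fits without 1 animal. Both shares and both levels were highest in fat: COX4I2 was at 1.42 to 41.0 CPM in fat (median 6.35) and 2.10 to 6.61 in muscle (3.51), and NDUFA4L2 at 3.19 to 35.4 CPM in fat (9.53) and 2.21 to 25.4 in muscle (4.68). The level of COX4I2 in muscle was lower than in fat by a log2 fold change of -1.46 ± 0.43 (adjusted p = 0.0042) and that of NDUFA4L2 by -0.97 ± 0.40 (adjusted p = 0.036). Unlike its share, the level of NDUFA4L2 was higher in muscle than in the pituitary gland, by 2.34 ± 0.42 (adjusted p = 9.1e-06). In muscle against fat, neither COX4I2 nor NDUFA4L2 passed the threshold without the fat of bull 5 (-0.90 and -0.75, adjusted p = 0.0504 and 0.11). In that comparison NDUFA4L2 also did not pass with the animal as a block (adjusted p = 0.069). COX6B2 and COX7B2, known as testis forms, had at most 6 and 28 reads in any library.

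Complex V, the ATP synthase, was higher in muscle in 13 of 15 members with a median of 1.06, and none was lower. ATP5B and ATP5A1 encode the beta and alpha subunits that form the catalytic head. ATP5B stood at 625 to 2298 CPM in muscle (median 1485), 264 to 628 in liver (447), 370 to 778 in fat (578) and 189 to 420 in the pituitary gland (338), and ATP5A1 at 683 to 1713 CPM in muscle (median 927), 265 to 540 in liver (425), 367 to 671 in fat (490) and 208 to 430 in the pituitary gland (336). The muscle values of ATP5A1 were separated from all others, and those of ATP5B were not. The log2 fold changes were 1.76 ± 0.16 for ATP5B and 1.35 ± 0.14 for ATP5A1 (adjusted p = 4.0e-13 and 7.0e-12). ATP5C1, the gamma subunit that turns inside the head, differed less (0.60 ± 0.18, adjusted p = 0.0025). It did not pass the threshold with library sizes alone (0.046, adjusted p = 0.89). ATP5E, the epsilon subunit, did not pass it with TMM (0.07 ± 0.28, adjusted p = 0.93). Its level was 1.10 to 4.23 CPM in muscle and 1.62 to 3.88 CPM in the pituitary gland.

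The c subunit of the ATP synthase ring is encoded by ATP5G1, ATP5G2 and ATP5G3, which make the same mature protein. All 3 were higher in muscle than in the average of the others, by 0.96 ± 0.31, 1.24 ± 0.19 and 1.06 ± 0.23 on the log2 scale (adjusted p = 0.0045, 1.4e-07 and 5.4e-05). With library sizes alone ATP5G1 did not pass the threshold (0.34, adjusted p = 0.29). Of the ATP5G1 and ATP5G2 reads, ATP5G1 took 33.8% ± 7.51 in liver and 26.8% ± 15.5 in fat, above 22.7% ± 10.7 in muscle and 19.3% ± 7.68 in the pituitary gland. Only the difference between muscle and liver passed the threshold (adjusted p = 0.0099, sign-flip permutation test, lower in muscle in 9 of 10 animals). Of the ATP5G2 and ATP5G3 reads, ATP5G3 took 32.2% ± 8.26 in muscle, 42.9% ± 14.1 in fat and 23.9% ± 6.12 in the pituitary gland. Muscle was lower than fat (adjusted p = 0.032, 8 of 10 animals) and higher than the pituitary gland (adjusted p = 0.012, 9 of 10 animals). The call against fat was lost in 8 of the fits without 1 animal.

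Members that are not, or not only, subunits varied in direction. NDUFAB1, the mitochondrial acyl carrier protein that also sits in complex I, was higher in muscle by 1.23 ± 0.22 (adjusted p = 1.5e-06). COX7A2L was lower in muscle, with a log2 fold change of -1.24 ± 0.19 (adjusted p = 1.0e-06) and 17.3 to 60.0 CPM in muscle (median 46.0) and 79.1 to 199 CPM in the pituitary gland (median 123), which did not overlap. ATP5S, a coupling factor of the ATP synthase, was slightly higher (0.42 ± 0.16, adjusted p = 0.020), and turned to -0.16 with library sizes alone. It also did not pass the threshold with RLE factors (0.33, adjusted p = 0.069) or with DESeq2 (0.33, adjusted p = 0.0502).

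Among the other tissues, fat was above liver and the pituitary gland, while the order of liver and pituitary gland turned with library sizes alone. Between liver and fat 56 of the 84 genes differed, 2 higher and 54 lower in liver (median log2 fold change -0.78, 63.7% of all genes differing, 28.7% higher and 35.0% lower in liver). Without the liver of bull 3 the count was 54, and without the fat of bull 5 it was 41, 5 higher and 36 lower, with a median of -0.47. The 2 genes that were higher in liver were SDHC and NDUFS1, the latter by 0.81 ± 0.17 (adjusted p = 5.9e-05, 10 of 10 animals), and neither passed the threshold with library sizes alone (adjusted p = 0.71 for both). COX4I2 and NDUFA4L2 showed the largest differences in the other direction (-6.57 ± 0.79 and -5.97 ± 0.65, adjusted p = 7.5e-12 and 3.2e-12). In liver they had only 9 and 23 reads in all 10 libraries, while fat held 1470 and 1795. With 1 animal left out the values ranged from -8.07 to -5.87 for COX4I2 and from -6.46 to -5.62 for NDUFA4L2.

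Between fat and pituitary gland 66 genes differed, 64 higher and 2 lower in fat (median 1.15), against 64.2% of all genes, 31.6% higher and 32.6% lower. Without the fat of bull 5 the count was 56, with 52 higher and 4 lower. The 2 genes that were higher in the pituitary gland were COX7B (by a log2 fold change of -1.40 ± 0.20, adjusted p = 2.1e-07) and NDUFA1 (-0.61 ± 0.27, adjusted p = 0.048), which encode small subunits of complexes IV and I and are X-linked in mammals. COX7B stood at 9.38 to 16.6 CPM in the pituitary gland and 2.99 to 9.97 CPM in fat, with a slight overlap. COX4I2 was higher in fat by 5.52 ± 0.53 (adjusted p = 1.6e-11). NDUFA1 no longer passed the threshold with the animal as a block (adjusted p = 0.092).

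Between liver and pituitary gland 32 genes differed, 26 higher and 6 lower in liver (median 0.28), which is a smaller share than the 64.3% of all genes that differed. In direction 29.2% of all genes were higher and 35.0% lower in liver. Without the liver of bull 3 the count was 31. With library sizes alone it was 44, 6 higher and 38 lower, with a median of -0.57 where the median of all genes was -0.92. Relative to the median of all genes, that of the 84 genes was 0.40 with TMM and 0.35 with library sizes alone. The higher genes with TMM were 7 of 37 in complex I, 4 of 4 in complex II, 5 of 9 in complex III, 3 of 16 in complex IV and 7 of 15 in complex V, and the complexes were not tested against each other. SDHC led with 3.07 ± 0.24 (adjusted p = 2.1e-13), followed by NDUFA4 with 2.06 ± 0.29 (adjusted p = 1.8e-07). NDUFA4L2 and COX7A1 were lowest in liver relative to the pituitary gland (-2.66 ± 0.66 and -2.39 ± 0.44, adjusted p = 8.2e-05 and 1.1e-05).

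For 4 members the mean over all libraries was below 1 CPM. NDUFV2, a core subunit of complex I, had at most 4 reads in any library, and ATP5L, a membrane subunit of the ATP synthase, at most 21. The other members of their complexes had means of at least 1 CPM, the lowest being NDUFA12 (2.58 CPM) and ATP5E (2.44 CPM). How far the loss of reads that match near-identical copies in the genome lowered these counts was not tested. COX6B2 and COX7B2 were the other 2. NDUFV2 and COX6B2 passed the threshold in muscle on these few reads, and no fold change is given for them. COX6B2 did not pass with the animal as a block (adjusted p = 0.089) or with DESeq2 (adjusted p = 0.17).

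Genes that act around the complexes were taken as 4 lists, and their counts stand beside the 61.1% of all genes that differed in the same comparison. All 19 genes of the tricarboxylic acid cycle differed between muscle and the average of the other tissues, 18 higher and 1 lower, with a median log2 fold change of 1.84. IDH2, the NADP-dependent mitochondrial isocitrate dehydrogenase, led with 3.74 ± 0.18 (adjusted p = 1.8e-22), at 381 to 849 CPM in muscle and at most 128 CPM elsewhere, and SUCLA2 and PDHX were higher by 2.95 ± 0.14 and 2.83 ± 0.14. The lower gene was PC, pyruvate carboxylase, which feeds gluconeogenesis and lipid synthesis. Of 31 assembly factors, which build the complexes without staying in them, 15 were higher and 5 lower (median 0.44), so that the share that differed was close to that of all genes. ECSIT and NDUFAF6, complex I assembly factors, and COX10, which makes haem A for complex IV, were higher by 3.0 ± 0.19, 2.30 ± 0.13 and 2.26 ± 0.17. FOXRED1, another complex I assembly factor, was lower (-1.69 ± 0.18) and stood at 309 to 618 CPM in liver against at most 68.5 CPM in the other tissues.

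Of 11 regulators of mitochondrial gene expression, 6 were higher in muscle and none lower. ESRRA, a nuclear receptor that acts on respiratory genes, was higher by 2.08 ± 0.20 (adjusted p = 1.0e-12). PPARGC1A, its coactivator, was higher by 3.23 ± 0.39 (adjusted p = 2.6e-10), with a wide range of 29.9 to 1422 CPM in muscle (median 87.8), set by the muscle of cow 5. Of 5 electron carriers and inhibitors, 4 were higher. ATPIF1, the inhibitor of the ATP synthase, was higher by 2.12 ± 0.18, CYCS, cytochrome c, by 1.06 ± 0.24 and ETFDH, which passes electrons from fatty acid oxidation to ubiquinone, by 0.81 ± 0.13. ETFDH had its highest level in liver (293 to 484 CPM against 111 to 331 in muscle). Of the 66 genes of these lists 0 passed the threshold for sex in edgeR's likelihood ratio test, in any tissue, over all tissues or in the interaction. At an unadjusted p under 0.05 there were 4 in liver, 2 in fat, 12 in muscle, 4 in the pituitary gland, 10 over all tissues and 4 in the interaction, beside 7.45, 6.88, 11.0, 9.27, 16.7 and 8.58% of all genes. The quasi-likelihood test also called 0, and DESeq2 called 1, COX10 over all tissues (adjusted p = 0.0497).

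Between cows and bulls no member passed the threshold. In edgeR's likelihood ratio test with sex alone, the model of the study for each tissue, 0 of 84 genes differed in liver, fat, muscle or pituitary gland, where 0.175, 0.114, 0.517 and 0.745% of all genes did. Without the liver of bull 3 the share of all genes in liver was 0.464%, with 0 of 84 called. With sex and tissue over all 40 libraries 0 of 84 differed, against 1.69% of all genes, and 0 of 84 showed a different sex effect between tissues (interaction terms), against 0.335%. At an unadjusted p under 0.05 the counts were 2 in liver, 6 in fat, 9 in muscle, 2 in the pituitary gland, 19 over all tissues and 2 for the interaction, beside 7.45, 6.88, 11.0, 9.27, 16.7 and 8.58% of all genes. The quasi-likelihood test gave 2, 4, 9, 2, 16 and 0, and DESeq2 gave 0, 4, 10, 2, 21 and 1 at the same unadjusted limit. Over all tissues, where the libraries of an animal count as independent, the 19 fell to 8 with voom and the animal as a block (9.24% of all genes), to 8 without the fat of bull 5 (15.5%) and to 6 with library sizes alone (22.1%). In fat the count was 2 without the fat of bull 5 and in muscle it was 3 with library sizes alone.

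More genes were above 0 than below for males to females in fat, muscle and pituitary gland, where single libraries set much of the size, and in liver the median turned to -0.07 with library sizes alone. The log2 fold change of males to females was above 0 for 77 of 84 genes in fat, 70 in muscle, 66 in the pituitary gland and 46 in liver. It was 46 in fat without the fat of bull 5, 54 in muscle without bull 3, 52 in the pituitary gland without bull 4 and 40 in liver without the liver of bull 3. The medians over the 84 genes were 0.49 in fat, 0.39 in muscle, 0.19 in the pituitary gland and 0.05 in liver, beside medians over all genes of -0.06, -0.04, 0 and 0. Without the fat of bull 5 the median in fat was 0.02, and over all tissues it moved from 0.27 to 0.17. In muscle the median was 0.13 without bull 3, in the pituitary gland it was 0.07 without bull 4 and 0.08 without cow 3 (0.03 with library sizes alone), and in liver it was -0.03 without the liver of bull 3. The 95% interval of the sex difference lay within 2-fold in either direction for 9 of 80 members in fat and 30 of 80 in muscle. It did so for 65 of 79 in liver and 67 of 79 in the pituitary gland. The count in liver holds the liver labelled bull 3 among the males, and none was made without it. A 2-fold difference was thus not excluded for most members in fat and muscle.

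**Figure D4:**
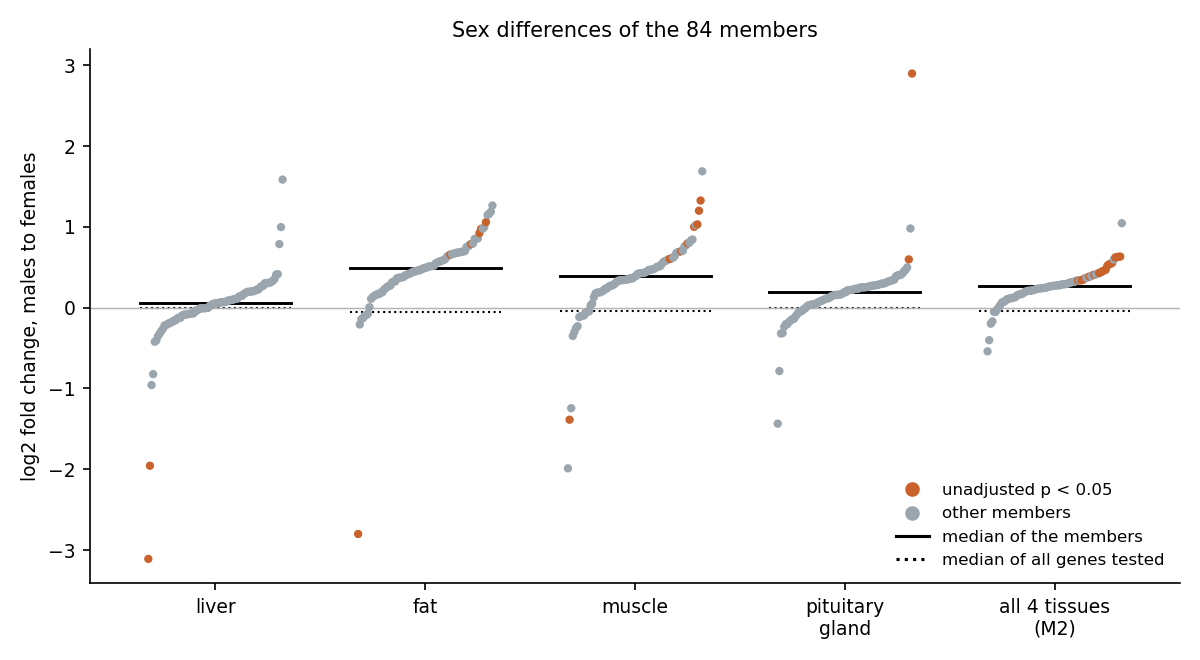
Log2 fold change of males to females for the 84 genes in each tissue and over all tissues (orange, unadjusted p under 0.05; solid line, median of the 84 genes; dotted line, median of all genes). None passed the adjusted threshold, and the medians are 0.49 in fat, 0.39 in muscle, 0.19 in the pituitary gland and 0.05 in liver.

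The members with the smallest p for sex were as follows. ATP5H, the d subunit of the ATP synthase stalk, had the smallest p over all tissues, with a log2 fold change of 0.52 ± 0.16 (adjusted p = 0.055). It passed the threshold with DESeq2 (adjusted p = 0.039) and with RLE factors (0.049), and without cow 4, cow 5 or bull 5, when 2, 5 and 4 of the 84 genes passed (adjusted p of ATP5H = 0.048, 0.016 and 0.0073). In muscle ATP5H stood at 129, 172, 204, 139 and 220 CPM in cows 1 to 5 and at 236, 349, 301, 319 and 186 CPM in bulls 1 to 5. The bulls were higher except bull 5, which lay among the cows, and the difference of 0.70 ± 0.28 did not pass the threshold (adjusted p = 0.27). SDHD in fat was the only member whose sexes did not overlap in a tissue, and the sexes did not overlap for 1.29% of all genes in fat, 1.65% in muscle, 1.34% in the pituitary gland and 0.548% in liver. It stood at 65.9, 72.2, 86.8, 72.9 and 56.7 CPM in the cows and 110, 118, 97.6, 98.7 and 142 CPM in the bulls, a difference of 0.66 ± 0.29 (adjusted p = 0.63). Over all tissues SDHD had a log2 fold change of 0.36 ± 0.12 and COX4I1 of 0.54 ± 0.19 (both adjusted p = 0.097).

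In fat NDUFB5, an accessory subunit of complex I, had 21.9, 37.8, 77.4, 28.3 and 14.2 CPM in the cows and 82.1, 66.2, 60.0, 68.5 and 105 CPM in the bulls (1.06 ± 0.44, adjusted p = 0.61), with cow 3 among the bulls. Without cow 3 NDUFB5 passed (adjusted p = 0.039). ATP5H in fat differed by 0.92 ± 0.41 (adjusted p = 0.63), and by 0.51 without the fat of bull 5. In the pituitary gland NDUFA13 and NDUFB11, accessory subunits of complex I, differed by 0.60 ± 0.28 and 0.40 ± 0.26 (adjusted p = 0.47 and 0.64). COX7B2 in the pituitary gland and COX6A2, NDUFA4L2 and ATP5L in liver also had the smallest p-values, on 0 to 17 reads per library. COX7B2 passed without cow 5 (adjusted p = 0.018). In the interaction COX6A2, NDUFA4L2 and NDUFB5 had the smallest p-values (adjusted p = 0.40, 0.50 and 0.72).

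In muscle NDUFA4L2 went the other way, with 25.4, 10.7, 9.39, 3.99 and 3.42 CPM in the cows and 4.34, 5.56, 5.02, 3.48 and 2.21 CPM in the bulls, which overlapped (-1.39 ± 0.52, adjusted p = 0.24). Without cow 4 it passed (adjusted p = 0.037). COX7A1 in muscle had 23.6, 66.8, 41.1, 77.9 and 94.1 CPM in the cows and 56.8, 90.1, 419, 99.2 and 69.8 CPM in the bulls (1.33 ± 0.53, adjusted p = 0.28), with bull 3 far above the rest. Without bull 3 the difference was 0.39 (adjusted p = 0.84). The shares within the 9 pairs of forms did not pass the threshold between the sexes in any tissue. Over 36 comparisons, by a 2-sided exact permutation test over the 252 assignments of 10 animals, the smallest p was 0.048 for COX6A2 in liver, which had 5 reads in the cow livers, and 0.54 after adjustment.

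Some markers of fibre type differed between the sexes in the same muscle samples, where 0.517% of all genes were called. Of 8 slow fibre genes, 2 were called higher in bulls, MYL2 (1.86 ± 0.40) and TNNC1 (1.81 ± 0.43), and of 10 fast fibre genes 1 was called, MYH1, lower in bulls (-5.20 ± 0.40, adjusted p = 8.3e-24). The other 15 did not pass the threshold, among them MYH2 at 0.64 and MYL1 at 0.01. The slow fibre genes summed to 20434 to 91124 CPM in the cows and 46829 to 117153 CPM in the bulls, which overlapped. The highest slow fibre sum and the highest sum of the 84 genes, 24658 CPM, were both in the muscle of bull 3, and the lowest of both, 20434 and 9615 CPM, in that of cow 1. The ribosomal protein genes had their extremes in the same muscle samples, 32352 CPM in bull 3 and 12465 CPM in cow 1. The muscle of bull 3 also had the fewest reads on genes of all libraries, 5173092. The fast fibre genes summed to 95432 to 137399 CPM in the cows and 55116 to 135918 CPM in the bulls. Of 8 leukocyte genes 1, CD14, was called lower in bulls (median over the list -1.0), with sums of 525 to 1459 CPM in the cows and 407 to 981 CPM in the bulls. Of 6 adipocyte genes 0 were called (median -0.59), with sums of 96.0 to 1350 CPM in the cows and 321 to 803 CPM in the bulls. The part of these in the muscle values was not tested.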

How the data were processed

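Poly-A selected RNA of 4 tissues from 10 Korean cattle was sequenced as paired-end reads, 1 library per animal and tissue. The values the authors deposited are raw counts per gene, made by HTSeq from uniquely aligned reads. Before that, trimming was done by Trimmomatic and alignment by TopHat2 (with Bowtie2) against bosTau7, the cattle genome as distributed by UCSC. Reads that match near-identical copies are thus missing from the counts, and the use of strand is not given in the sources used here. A row without a gene name, at 0.114 to 2.69% of the named and unnamed reads together, was left out. Sex and tissue came from the labels, and the animal from the ear tag in the sample titles, by which animals were numbered within each sex.

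Genes without any read were dropped, which kept 13148. Tests used edgeR 4.0.16 in R 4.3.3 with TMM factors. Sex was tested by the likelihood ratio test, as in the study, with sex alone per tissue, with sex and tissue over all libraries, and with their interaction. The study made no test between tissues, so tissues were compared by the quasi-likelihood test over 8 group means, averaged over the sexes. P-values were adjusted over all genes kept (Benjamini-Hochberg) and called below 0.05. Standard errors come from the model and sex intervals are Wald intervals at 95%. Shares of paralogs were compared with exact permutation tests in scipy 1.17.1. The scripts were tested on simulated counts. Alternatives were DESeq2 1.42.0, limma 3.58.1 voom, other scalings, another filter, an animal block and the removal of single libraries.

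The 4 tissues of an animal share its ear tag. Deviations from the group means correlated by 0.034 to 0.255 on average between tissues of the same animal and by -0.063 to -0.012 between other animals of the same sex. No pair of libraries agreed within sampling noise (chi-square of at least 15.0 per gene).

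The genes, lists and tests were chosen with earlier results of these data known. Genes were named by rule: both genes of each pair of forms, all of complex II, the 2 highest and 2 lowest log2 fold changes in muscle for each other complex (mean of at least 1 CPM), the 2 highest and 2 lowest called in each other tissue pair, the members called for sex or otherwise the 3 with the smallest p, and the members that are not only subunits. Of the other lists, the 4 genes with the smallest p could be named. The intervals of the COX6A2 read ratios cover counting error only. The sex intervals come from the fitted model, which includes the spread between libraries.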

Additional observations from a re-analysis of the deposited data

Results flagged for a closer look

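In groups of 5 animals of a sex in a tissue, the summed levels and the shares of forms were examined for a sample whose gap to its nearest neighbour exceeded 0.71 of the range (Dixon's criterion). Of 84 groups 7 met it, where about 4.2 would by chance at 1 in 20, and the groups share samples. The fat of bull 5 met it 5 times. Among the male fat samples it was highest for all 84 genes (21954 CPM, the others 7193 to 9675), complex I (7519 CPM, the others 2000 to 2846), complex III (3320 CPM, the others 897 to 1274), complex IV (3810 CPM, the others 1077 to 1395) and complex V (5666 CPM, the others 2281 to 2841). The complex II genes summed to 1464 CPM in the same library, next to 734 to 1364 CPM in the other 9 fat samples, and did not meet the criterion.

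The liver of cow 5 was highest among the female liver samples for complex I, at 2196 CPM where the others were at 1299 to 1508. It held the highest liver value for 42 of the 84 genes and for 11.7% of all genes with a read in liver. The ribosomal protein genes summed to 28238 CPM there and to 9287 to 19338 CPM in the other liver samples. The muscle of cow 3 had the lowest share of COX7A1 among the female muscle samples, 80.8% where the others were at 88.3 to 91.0%.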

How the results depend on the processing

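Counts of genes called between tissues stayed within 1.5 times the reported count in all alternatives that were run, and no gene was called for sex by the quasi-likelihood test, without TMM, with the stricter filter, without the liver of bull 3, without the fat of bull 5 or by voom with the animal as a replicate block. Over all tissues 1 gene, ATP5H, was called for sex with RLE factors and with DESeq2. Leaving out 1 animal at a time gave 0 to 5 calls for sex over all tissues: 2 without cow 4 (ATP5H, COX7C), 5 without cow 5 (ATP5F1, ATP5H, COX4I1, NDUFA13, SDHD), 4 without bull 5 (ATP5H, COX4I1, COX7C, SDHD) and 0 without the others. The range was 0 to 1 in fat (NDUFB5 without cow 3), muscle (NDUFA4L2 without cow 4) and pituitary gland (COX7B2 without cow 5), and 0 in liver. Why these calls came and went was not tested. Library sizes alone in place of TMM reversed 3 medians over the 84 genes, muscle against fat (-0.22), liver against pituitary gland (-0.57) and males against females in liver (-0.070), while the medians over all genes moved by up to -0.87. They also reversed SDHC in muscle against fat (-0.053, adjusted p = 0.89) and ATP5G3 in liver against pituitary gland (-0.083, adjusted p = 0.80). In muscle against the average of the others they reversed ATP5S (-0.16, adjusted p = 0.52) and NDUFB2 (-0.12, adjusted p = 0.53). There they also ended the calls of COX6B1 (0.43, adjusted p = 0.083), ATP5G1 (0.34, 0.29), SDHA (0.097, 0.61) and ATP5C1 (0.046, 0.89). The split of higher and lower genes became 16 and 24 in muscle against fat, 6 and 38 in liver against pituitary gland, 0 and 74 in liver against fat and 54 and 9 in muscle against pituitary gland. In muscle against the average of the others it became 57 and 5. The median in liver between the sexes was -0.034 without the liver of bull 3 and ranged from -0.043 to 0.24 with 1 animal left out. The cause of these turns was not tested. With the animal as a replicate block the calls between tissues numbered 73, 44, 77, 54, 35, 65 and 77 for muscle against liver, fat and pituitary gland, liver against fat and pituitary gland, fat against pituitary gland, and muscle against the average. The block ended the calls of NDUFA4L2 in muscle against fat (adjusted p = 0.069), COX6A2 in liver against fat (0.14), NDUFA1 in fat against pituitary gland (0.092) and COX6B2 in muscle against pituitary gland (0.12) and against the average (0.089), and of no other named gene. RLE factors ended the calls of COX6A2, COX6B1 and ATP5G2 in liver against fat (adjusted p = 0.051, 0.078 and 0.084). They also ended that of ATP5S in muscle against the average (0.069). DESeq2 ended the same calls (adjusted p = 0.067, 0.072, 0.078 and 0.0502). With DESeq2 COX6B2 was also lost in muscle against fat, pituitary gland and the average (0.13, 0.23 and 0.17). Of 231 alternatives for the called shares of forms 22 fell short of the threshold, all of COX7B2 in muscle against liver, NDUFA4L2 in muscle against pituitary gland and ATP5G3 in muscle against fat. At 0 reads, a level of up to 0.157 to 0.580 CPM, before the TMM scaling, remains possible.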

Other observations

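The share of ATP5G1 in the ATP5G1 and ATP5G2 reads, which encode the same mature ring subunit, varied between animals. This was chosen after the values were seen and was not tested. Bull 2 had the highest share in liver (46.8%), muscle (46.6%) and pituitary gland (35.6%), while in fat cow 4 was highest (51.7%). Cow 3 had the lowest share in liver (17.6%), fat (9.59%) and pituitary gland (8.85%), and in muscle it was next to the lowest (14.1%, with cow 1 at 12.2%).

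Single libraries held many of the highest values of the 84 genes outside fat too. The muscle of bull 3 held the highest muscle value for 53 of them, as for 10.5% of all genes with a read in muscle, and the 81 ribosomal protein genes summed to 32352 CPM there and to 12465 to 19726 CPM in the other muscle samples. In the pituitary gland bull 4 held the highest value for 45 of the 84 genes, as for 14.3% of all genes with a read there.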
